A study of Mus musculus and Homo sapiens with 10 samples.

Results

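The genes described here are 10 mouse immediate early genes, Ier2, Ier3, Ier5, Egr1, Nr4a1, Dusp1, Btg2, Zfp36, Mcl1 and Myc. They were given as a list of names by a rule that uses no measured value, but they were chosen with earlier results of these data known. Each was represented by its GRCm38 RefSeq gene body with 2 kb on each side. This gave 10 of the 21883 protein-coding gene windows on the main chromosomes. In-suspension BLISS ligates adapters to the free ends of double-strand breaks in suspended cells or nuclei, and the sequenced ends give the broken position to the base. Of the 10 libraries in the study, 6 came from enterocytes of the mouse jejunum and were used here, sorted into Cd73 high, Cd73 mid and Cd73 negative gates with 2 libraries each, named M1 and M2. Cd73, the product of Nt5e, is a cell surface nucleotidase that enterocytes carry at higher levels toward the villus tip. The labels give no strain, genotype, age or treatment, and all 6 libraries share the tissue and the sort. They do not say whether M1 and M2 were separate animals, so the spread and the p-values here measure only the spread between libraries, which may be technical.

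Immediate early genes are switched on by growth factors, stress or activity without new protein synthesis, through MAP kinases and the transcription factors SRF, ELK and CREB that already sit at their promoters. Most are short genes with short-lived transcripts, and many of their products either drive the next wave of transcription or shut the signal down. They are known to be induced in many tissues when cells are dissociated, and in cultured mouse neurons the type II topoisomerase TOP2B has been described to cut several of them on stimulation. Neither transcription nor topoisomerase activity was measured in the libraries used here.

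Depth differed widely between the gates. The main chromosomes held 1522615 and 1272771 break ends in Cd73 high, 4757961 and 5160171 in Cd73 mid, and 13043514 and 12585228 in Cd73 negative libraries. Positions with more than 1 end held 6.32% and 6.38% of all ends in Cd73 high, 12.8% and 16.6% in Cd73 mid, and 25.5% and 26.2% in Cd73 negative libraries. After every library was thinned to 1272771 ends, these shares lay between 4.69% and 6.38%. Within the 10 windows the counts per library ran from 5 to 27 ends in Cd73 high, from 22 to 158 in Cd73 mid and from 98 to 308 in Cd73 negative. The smallest, 5 ends at Ier3 in Cd73 high M1, had an exact Poisson 95% interval of 1.62 to 11.7, which like every interval here covers counting error only, since the labels do not say whether ends are unique molecules or reads. As a check of the labelled cell type, by break density and not by expression, 15 enterocyte markers had a median density at the 79.6th, 74.3rd and 74.1st percentile of all windows in Cd73 high, mid and negative. In the same order of gates 5 enteroendocrine markers stood at the 70.4th, 55.9th and 54.2nd percentile, 6 lymphocyte markers at the 59.1st, 32.9th and 38.2nd, 6 goblet cell markers at the 43.2nd, 36.4th and 35.8th, 4 tuft cell markers at the 31.1st, 27.1st and 27.8th, and 4 Paneth cell markers at the 13.7th, 9.36th and 11.3rd. The enterocyte markers were thus highest in each gate, with the enteroendocrine markers next.

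The promoter table of RefSeq (GRCm38.p6) matched 7 of the 10 genes: Ier3, Ier5, Nr4a1, Dusp1, Btg2, Zfp36 and Mcl1. Ier2, Egr1 and Myc have no entry in it. Printed first are the 250 bases before the start of the 2 genes with the densest promoters in Cd73 negative cells, 5′ to 3′ on the gene's strand, with capitals at bases that carried a break end in both Cd73 negative libraries. Ier3 lies at chr17:35821463-35821712 on the plus strand and Ier5 at chr1:155099637-155099886 on the minus strand.
Ier3: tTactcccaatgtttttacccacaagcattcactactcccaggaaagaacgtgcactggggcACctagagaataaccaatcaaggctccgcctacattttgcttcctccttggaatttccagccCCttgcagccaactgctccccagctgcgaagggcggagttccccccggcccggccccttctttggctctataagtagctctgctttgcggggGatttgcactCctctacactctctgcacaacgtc
Ier5: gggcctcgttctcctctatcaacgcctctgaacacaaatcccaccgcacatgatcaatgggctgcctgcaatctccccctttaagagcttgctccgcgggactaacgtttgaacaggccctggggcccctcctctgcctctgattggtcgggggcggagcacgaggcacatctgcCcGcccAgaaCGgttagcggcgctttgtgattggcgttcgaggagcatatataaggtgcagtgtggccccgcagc
The Ier3 stretch held 0 and 1 ends in Cd73 high, 2 and 12 in Cd73 mid, and 23 and 42 in Cd73 negative libraries, and its 7 capital bases carried 17 and 30 of the ends in the Cd73 negative libraries. The Ier5 stretch held 1 and 0 ends in Cd73 high, 4 and 16 in Cd73 mid, and 37 and 34 in Cd73 negative libraries. Its 5 capital bases all lie within 12 bases, from -75 to -64 relative to the start, and held 14 and 16 of those Cd73 negative ends. No capital base of either gene was hit in a Cd73 high library, where a count of 0 allows up to 3 ends. Both the 2 genes and the capital bases were chosen by the Cd73 negative libraries, the deepest. Their counts and densities therefore cannot be compared between gates without that bias. The files carry no strand, so on which side of a marked base the break lay is unknown.

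Densities are given as break ends per kb per 1000000 main-chromosome ends (EPKM). The Ier3 promoter stretch averaged 1.57 ± 2.22 EPKM in Cd73 high, 5.49 ± 5.39 in Cd73 mid and 10.2 ± 4.45 in Cd73 negative (SD, n = 2 each), and Ier5 averaged 1.31 ± 1.86, 7.88 ± 6.39 and 11.1 ± 0.382 EPKM in the same gates. Among 32851 promoter stretches of the same length these Cd73 negative values stood at the 95.5th percentile for Ier3 and the 96.1st for Ier5. The other 5 promoters ran from 0.937 EPKM at Nr4a1 to 4.04 EPKM at Btg2 in Cd73 negative. The 7 promoters therefore differed widely, with a mean of 4.93 and a median of 3.28 EPKM in Cd73 negative.

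Sequence motifs of the pathway were then searched on both strands of the same stretches, and the promoters of Zfp36 (chr7:28379229-28379478, minus strand) and Dusp1 (chr17:26508473-26508722, minus strand) are shown because they hold the most typical ones, with capitals marking the motif letters.
Zfp36: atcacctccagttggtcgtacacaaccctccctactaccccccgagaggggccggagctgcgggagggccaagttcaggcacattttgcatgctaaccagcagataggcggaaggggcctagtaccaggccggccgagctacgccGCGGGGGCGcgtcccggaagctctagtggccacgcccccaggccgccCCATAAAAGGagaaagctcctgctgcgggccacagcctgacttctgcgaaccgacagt
Dusp1: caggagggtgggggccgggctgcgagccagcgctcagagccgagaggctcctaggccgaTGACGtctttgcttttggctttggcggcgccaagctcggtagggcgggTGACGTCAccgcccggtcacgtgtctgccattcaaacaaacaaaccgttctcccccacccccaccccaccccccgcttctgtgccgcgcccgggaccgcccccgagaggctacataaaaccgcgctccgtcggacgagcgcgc
In Zfp36 the capitals are an EGR motif, GCGGGGGCG, from -105 to -97 and a CArG box, the motif of SRF, from -58 to -49. In Dusp1 they are the CRE TGACGTCA, the motif of CREB, from -143 to -136 and a CRE core, TGACG, from -191 to -187. Every full CRE also holds CRE cores. The full CRE was found in 2 of the 7 promoters (Btg2 and Dusp1) and in 1.55% of all 32851, the CRE core in 3 of 7 (Btg2, Nr4a1 and Dusp1) and 17.8%, the EGR motif in 2 of 7 (Zfp36 and Nr4a1) and 2.57%, and the CArG box in 1 of 7 (Zfp36) and 1.47%. The AP-1 motif TGANTCA was in 0 of 7 and 6.75%, and the TATA motif TATAAA in 0 of 7 and 12.4%. These matches describe the letters in the windows and show no binding.

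Across whole windows, all 10 genes lay above the median window in each gate. The median window had 0.534 EPKM in Cd73 high, 0.557 in Cd73 mid and 0.578 in Cd73 negative. The 10 genes had a median of 1.13 EPKM in Cd73 high, 1.38 in Cd73 mid and 1.65 in Cd73 negative, and 6, 6 and 7 of them stood in the top 10% of windows in those gates.

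The immediate early response proteins were led by Ier2, a nuclear protein with a role in transcription whose gene (chromosome 8, 84661331 to 84662852) is among the shortest here. Ier2 had 2.62 and 1.71 EPKM in Cd73 high libraries, 2.47 and 3.97 in Cd73 mid and 3.30 and 4.43 in Cd73 negative. It ranked 60th of 21883 windows in Cd73 high, 12th in Cd73 mid and 8th in Cd73 negative, and every Cd73 high library was below both Cd73 negative libraries. Ier5 (chromosome 1, 155096367 to 155099636), a related nuclear protein that acts on heat shock factor signalling, had 1.08 and 0.757 EPKM in Cd73 high, 1.24 and 1.87 in Cd73 mid and 1.75 and 1.497 in Cd73 negative. Ier3 (chromosome 17, 35821713 to 35822911), a stress-induced regulator of cell survival, had 0.632 and 1.21 EPKM in Cd73 high, 0.889 and 1.30 in Cd73 mid and 1.45 and 1.91 in Cd73 negative. In both genes the Cd73 high libraries lay below the Cd73 negative ones. The Ier3 window also overlaps the protein-coding gene Flot1, so ends of the pair cannot be told apart there.

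The transcription factors followed. Myc (chromosome 15, 61985341 to 61990361), which drives growth and proliferation, had 0.946 and 1.31 EPKM in Cd73 high libraries, 1.14 and 1.95 in Cd73 mid and 1.90 and 2.40 in Cd73 negative. Its Cd73 high libraries lay below both Cd73 negative ones, while one Cd73 mid library reached into the Cd73 negative range. The zinc finger factor Egr1 (chromosome 18, 34861207 to 34864956) had 2.03 and 1.01 EPKM in Cd73 high, 1.33 and 1.70 in Cd73 mid and 1.84 and 2.43 in Cd73 negative, and its Cd73 high libraries spanned the values of both Cd73 mid libraries. The orphan nuclear receptor gene Nr4a1 (chromosome 15, 101253902 to 101274795), the longest of the 10, had 0.712 and 0.789 EPKM in Cd73 high, 0.827 and 1.23 in Cd73 mid and 0.804 and 0.926 in Cd73 negative. It was the least dense gene in Cd73 mid and Cd73 negative, and its highest gate was Cd73 mid.

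The genes Zfp36, Dusp1, Btg2 and Mcl1 came next. Zfp36 (chromosome 7, 28376784 to 28379228) encodes tristetraprolin, which destabilizes AU-rich mRNAs, and had 2.14 and 2.19 EPKM in Cd73 high, 1.96 and 2.56 in Cd73 mid and 2.33 and 3.05 in Cd73 negative. It stood between the 99.5th and the 99.7th percentile of windows in each gate, and its Cd73 mid libraries overlapped those of both other gates. Dusp1 (chromosome 17, 26505591 to 26508472), a phosphatase that inactivates MAP kinases, had 1.05 and 1.37 EPKM in Cd73 high, 1.25 and 0.986 in Cd73 mid and 1.56 and 1.70 in Cd73 negative. Btg2 (chromosome 1, 134074865 to 134079155), an antiproliferative protein that promotes deadenylation of mRNAs, had 0.634 and 0.853 EPKM in Cd73 high, 0.887 and 1.59 in Cd73 mid and 1.01 and 1.20 in Cd73 negative. For Dusp1 and Btg2 the Cd73 high libraries lay below the Cd73 negative ones. The Dusp1 window also overlaps the long non-coding RNA gene Gm34455. Mcl1 (chromosome 3, 95656944 to 95663179), an antiapoptotic member of the BCL2 family, had 1.03 and 1.23 EPKM in Cd73 high, 0.986 and 1.12 in Cd73 mid and 1.14 and 1.10 in Cd73 negative, with all 3 gates overlapping.

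**Figure D1:**
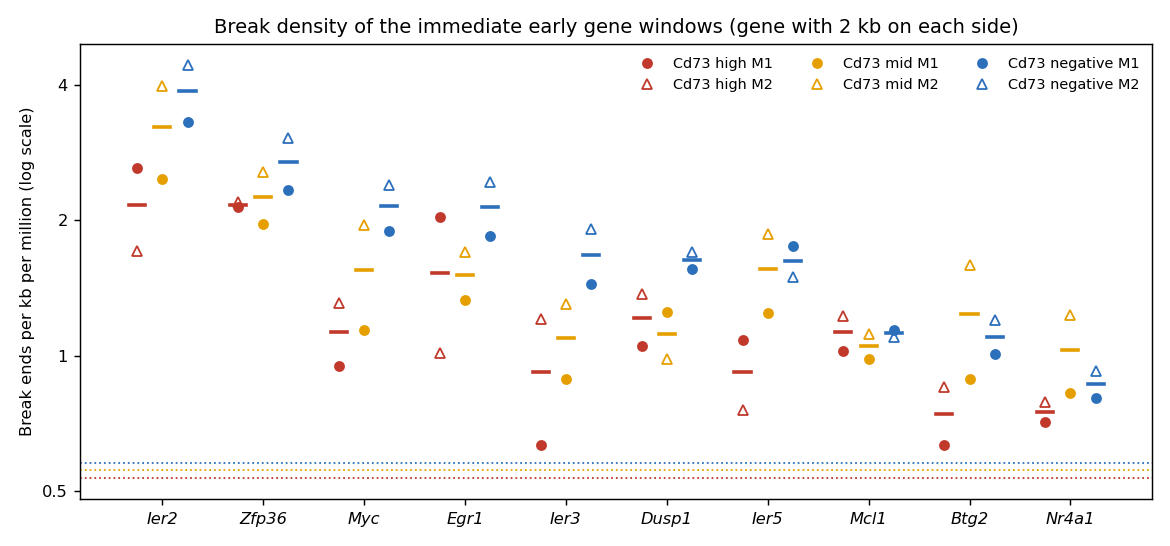
Break density in EPKM (log axis) of each of the 10 gene windows in each library, with M1 as filled circles, M2 as open triangles and the gate mean as a bar. Dotted lines are the median of all 21883 windows in each gate (0.534, 0.557 and 0.578 EPKM in Cd73 high, mid and negative), and all 60 points lie above them.

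The 10 genes were ordered by mean level in each gate. Neighbours in that order overlapped between libraries in 9 of 9 pairs in Cd73 high, 8 of 9 in Cd73 mid and 6 of 9 in Cd73 negative. The steps without overlap were Zfp36 over Ier5 in Cd73 mid, and Ier2 over Zfp36, Ier5 over Mcl1 and Btg2 over Nr4a1 in Cd73 negative. M2 was denser than M1 in 7 of 10 genes in Cd73 high, 9 of 10 in Cd73 mid and 8 of 10 in Cd73 negative, against 46.1%, 62.8% and 62.9% of all windows. A difference between M1 and M2 that genes share also makes neighbours overlap, so overlap does not show that their levels were alike.

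The high rank of these genes depended on what they were set against. Their windows are short, and short windows hold a larger share of gene start sequence, so a second background of the 4755 windows of 5 to 11 kb was added after the values were seen. It covers 9 of the 10 genes, all but Nr4a1, and had a median of 0.639 EPKM in Cd73 high, 0.708 in Cd73 mid and 0.753 in Cd73 negative. All 9 genes lay above it, at the 57.5th to 98.99th percentile in Cd73 high, the 68.4th to 99.8th in Cd73 mid and the 65.4th to 99.9th in Cd73 negative, and 3, 2 and 4 of the 9 were in its top 10%. Within 1 kb of the listed start, the 7 genes with a start stood between the 43.6th and 74.1st percentile of 17491 gene starts in Cd73 high, the 52.7th and 75.8th in Cd73 mid, and the 49.6th and 82.5th in Cd73 negative. Around their starts, therefore, the densities of these 7 genes were in the range of many other genes.

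Most of the 10 windows were denser than the DNA around them. The local ratio divides the density in the window by that in the flanks out to 50 kb on each side in the same library, so depth and regional copy number cancel. Its median over the 10 genes was 2.17 in Cd73 high, 2.31 in Cd73 mid and 2.51 in Cd73 negative, beside 1.13, 1.15 and 1.17 over all windows. Ier2 had the highest ratio, 3.20 ± 0.948 in Cd73 high, 3.998 ± 0.610 in Cd73 mid and 4.68 ± 0.191 in Cd73 negative (SD, n = 2 each). Myc had 2.87 ± 0.215, 3.74 ± 1.43 and 4.46 ± 0.974, and Egr1 had 2.76 ± 1.01, 3.27 ± 0.750 and 3.84 ± 0.621 in the same gates. Nr4a1 stood closest to its flanks, with 0.996 ± 0.119 in Cd73 high, 1.12 ± 0.140 in Cd73 mid and 0.961 ± 0.0415 in Cd73 negative. Between Cd73 high and Cd73 negative the libraries did not overlap in 6 genes, lower in 5 (Ier2, Ier3, Ier5, Btg2 and Myc) and higher in Mcl1, beside 26.4% of all windows lower and 14.5% higher. Between Cd73 mid and Cd73 negative they did not overlap in 5 genes, lower in 4 (Ier2, Ier3, Dusp1 and Zfp36) and higher in Nr4a1, beside 20.3% and 13.2%. With 2 libraries against 2 a two-sided exact permutation test cannot give less than p = 0.33, the value of 14 of the 30 comparisons made over the 3 pairs of gates, and the Benjamini-Hochberg adjusted p was 0.714 or more in all 30.

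Whether the density of these genes differed between the gates was tested with a single fit of all windows. None of the 10 genes passed the edgeR quasi-likelihood test in Cd73 high against Cd73 negative, with Benjamini-Hochberg adjusted p from 0.362 to 0.961 over 19146 windows tested. In the same comparison 0.00522% of all windows were called, a single window, that of Cdk5rap2, named here after its value was seen. An unadjusted p below 0.05 was found for 2 of the 10 genes, Ier2 and Myc, beside 9.14% of all windows. DESeq2 called 0 of the 10, beside 1 of 19146 windows, and gave 1 at that unadjusted level, beside 843 of 19146.

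The fold changes were nonetheless mostly below 0. In Cd73 high against Cd73 negative the log2 fold change was lower in 9 of the 10 genes, beside 50.5% of all windows, and the median was -0.37, beside -0.00340 over all windows. Myc had the largest difference, -0.80 (SE 0.29, 95% interval -1.36 to -0.24, edgeR quasi-likelihood adjusted p = 0.362). Ier3 had -0.75 (SE 0.41), Ier2 -0.67 (SE 0.27) and Ier5 -0.66 (SE 0.35), with edgeR adjusted p of 0.588, 0.391 and 0.575. Btg2 had -0.44 (SE 0.38) and Egr1 -0.30 (SE 0.28). Dusp1 at -0.30 (SE 0.34), Zfp36 at -0.16 (SE 0.27), Nr4a1 at -0.0636 (SE 0.23) and Mcl1 at 0.14 (SE 0.30) lay within 1 SE of 0. The 95% intervals of Zfp36, Nr4a1 and Mcl1 reached from -0.69 to 0.36, from -0.52 to 0.40 and from -0.45 to 0.74.

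Libraries of both gates were also compared in counts scaled by TMM. With Cd73 high lower, they did not overlap in 6 of the 10 genes (Ier2, Ier3, Ier5, Dusp1, Btg2 and Myc), beside 21.5% of all windows. Among tested windows of 5 to 11 kb this share was 30.5%, 63.9% had a log2 fold change below 0 and the median was -0.16, beside a median of -0.44 for the 9 genes of that length. When each position was counted once, the median of the 10 genes was -0.10, with all libraries thinned to equal depth it was -0.57, and with both it was -0.46. With each position counted once Ier2 had -0.16, and 0 of the 10 genes had an unadjusted edgeR p under 0.05, beside 920 of 19049 windows. Leaving out 1 Cd73 high library moved single genes widely. Without M1 and without M2 Ier3 had -0.31 and -1.29, Ier2 -1.02 and -0.44, Btg2 -0.21 and -0.68, and Dusp1 -0.0926 and -0.52. Egr1 turned to 0.0496 without Cd73 high M2, Mcl1 turned to -0.0116 without Cd73 high M2, and Nr4a1 turned to 0.0254 without Cd73 high M1. Markers of other cell types were counted in the same comparison, in which 50.5% of all windows were lower and 9.14% had an unadjusted edgeR p under 0.05. All 6 lymphocyte markers had a log2 fold change above 0, with a median of 0.41, 0 called and 2 at an unadjusted p under 0.05, and their ends summed to 119 to 123 per 1000000 in Cd73 high, 98.4 to 107 in Cd73 mid and 98.1 to 109 in Cd73 negative. Of the tuft cell markers 3 of 4 were higher, 2 of them at an unadjusted p under 0.05, and their ends summed to 188 to 206 per 1000000 in Cd73 high, 179 to 190 in Cd73 mid and 180 to 183 in Cd73 negative. Goblet cell markers were lower in 3 and higher in 3, with a median of 0.0255, and enteroendocrine markers lower in 3 and higher in 2, with -0.00332. Enterocyte markers were lower in 8 and higher in 7, with a median of -0.0294. Of the 4 Paneth cell markers only 2 passed the count filter, both higher, with 0.22. The ends of all 4 summed to 7.86 to 9.19 per 1000000 in Cd73 high and 7.39 to 8.74 in Cd73 negative, which overlap. The 1106 windows of olfactory receptor genes, which enterocytes are not known to transcribe, summed to 2022 to 2061 ends per 1000000 in Cd73 high, 1903 to 2034 in Cd73 mid and 1850 to 1881 in Cd73 negative. Of the 419 of them tested, 311 were higher and 108 lower. Those tested had a median log2 fold change of 0.42, but sparse windows can pass the count filter through the gate where they are high. The sums, over all 1106 without that filter, were higher in both Cd73 high libraries than in both Cd73 negative ones. Higher sums in Cd73 high were thus also found outside the lymphocyte markers. The part of these differences in the values of the 10 genes was not tested.

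**Figure D2:**
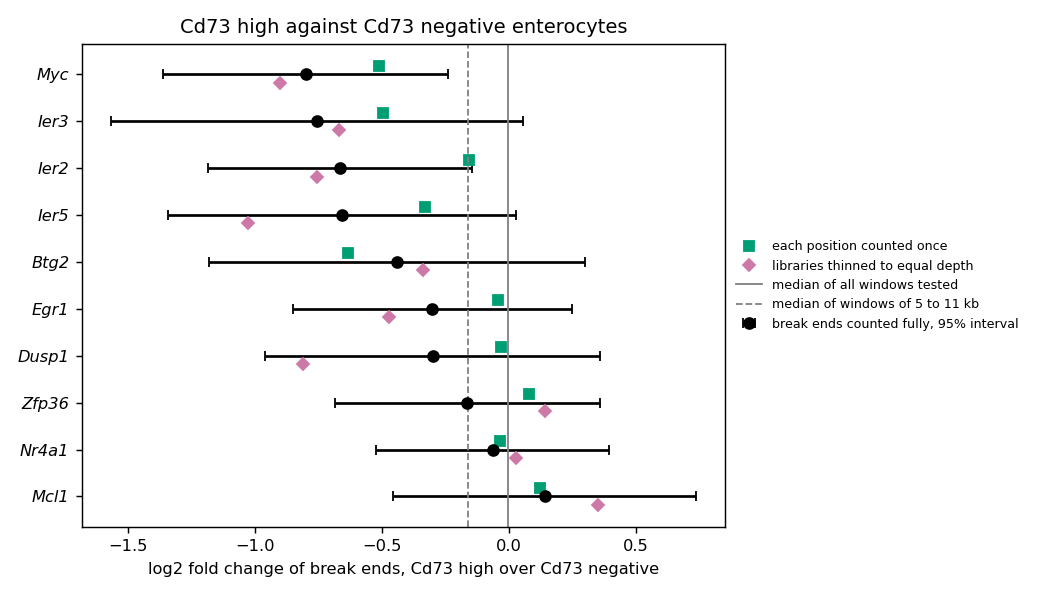
Log2 fold change of break ends in Cd73 high over Cd73 negative for each gene, with the edgeR estimate and its 95% interval in black, the estimate with each position counted once as green squares and that with all libraries thinned to equal depth as pink diamonds. The solid line is the median of all tested windows (-0.00340) and the dashed line that of windows of 5 to 11 kb (-0.16), and 9 of 10 black points lie below 0 although none passed the test.

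In Cd73 mid against Cd73 negative none of the 10 genes passed either, each with an edgeR quasi-likelihood adjusted p of 0.998, and 0% of all windows were called. With DESeq2 0 of the 10 genes had an unadjusted p below 0.05, beside 55 of 19146 windows. With edgeR 5 of the 10 genes did, beside 3.65% of all windows. Of these 5, 4 were lower, with a log2 fold change of -0.53 (SE 0.26) at Ier3, -0.48 (SE 0.23) at Dusp1, -0.42 (SE 0.20) at Egr1 and -0.39 (SE 0.18) at Myc. Nr4a1 was the single higher gene of the 5, at 0.32 (SE 0.16). Over the 10 genes 7 were lower and 3 higher, beside 49.6% lower over all windows, and the median was -0.18, beside 0.00192 over all windows. When each position was counted once, 5 were lower and 5 higher, and the median was -0.0287. In that setting only Nr4a1, which was higher, had an unadjusted edgeR p under 0.05, beside 511 of 19049 windows. In counts scaled by TMM, libraries did not overlap in 3 genes lower (Ier3, Egr1 and Dusp1) and 1 higher (Nr4a1), beside 15.9% and 15.2% of all windows. In EPKM the Nr4a1 libraries did overlap, with 0.827 and 1.23 in Cd73 mid and 0.804 and 0.926 in Cd73 negative. Leaving out 1 Cd73 mid library moved most of the 5 values: without M1 and without M2 Nr4a1 had 0.52 and 0.0516, Myc -0.12 and -0.79, Ier3 -0.34 and -0.80, and Dusp1 -0.71 and -0.26. Without Cd73 negative M2 Egr1 had -0.26 and Myc -0.27. Ier3 turned to 0.13 with all libraries thinned to equal depth. Among windows of 5 to 11 kb 58.4% were lower.

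In Cd73 high against Cd73 mid none of the 10 genes passed the edgeR quasi-likelihood test (adjusted p = 0.998 for each), and 0% of all windows were called. None of the 10 reached an unadjusted p under 0.05 with edgeR or DESeq2, beside 4.40% of all windows with edgeR and 295 of 19146 with DESeq2. There were 6 genes lower, beside 49.7% of all windows, and 4 higher, with a median log2 fold change of -0.30, beside 0.00170 over all windows. Among tested windows of 5 to 11 kb 59.5% were lower with a median of -0.0990, beside 5 of the 9 genes of that length. Libraries did not overlap in 3 genes (Ier5, Nr4a1 and Btg2), all with Cd73 high lower, beside 17.1% of all windows. The 3 comparisons share libraries, so their values are not independent of each other.

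The ends were not spread evenly along the windows. Over the 7 genes with a listed start, the 250 bases before the start had 1.42 ± 0.109 EPKM in Cd73 high, 3.44 ± 2.49 in Cd73 mid and 4.93 ± 0.282 in Cd73 negative (SD, n = 2 each), beside 1.996, 2.48 and 3.05 over all 17491 starts. The next 250 bases had 2.70 ± 0.630, 3.22 ± 0.304 and 3.24 ± 0.429 EPKM, beside 2.04, 2.49 and 2.88. In the bin centred 1125 bases into the gene the 7 genes had 2.25 ± 0.00491 EPKM in Cd73 high, 2.30 ± 0.194 in Cd73 mid and 1.96 ± 0.176 in Cd73 negative, beside 0.799, 0.910 and 1.04 over all genes. Before the start the 7 genes together were thus above the average of all starts in both Cd73 negative libraries, where Ier3 and Ier5 held 55.6% and 67.3% of the ends and Nr4a1 and Dusp1, with 0.937 and 1.71 EPKM, lay below that average. The Cd73 mid libraries, with 1.68 and 5.20 EPKM, lay on either side of it. In Cd73 high this bin held 4 and 3 ends in all, and the exact Poisson 95% intervals, 0.409 to 3.84 and 0.278 to 3.94 EPKM, include the average. In every bin from 750 to 2249 bases after the start the mean of the 7 genes was above that of all starts in each gate.

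**Figure D3:**
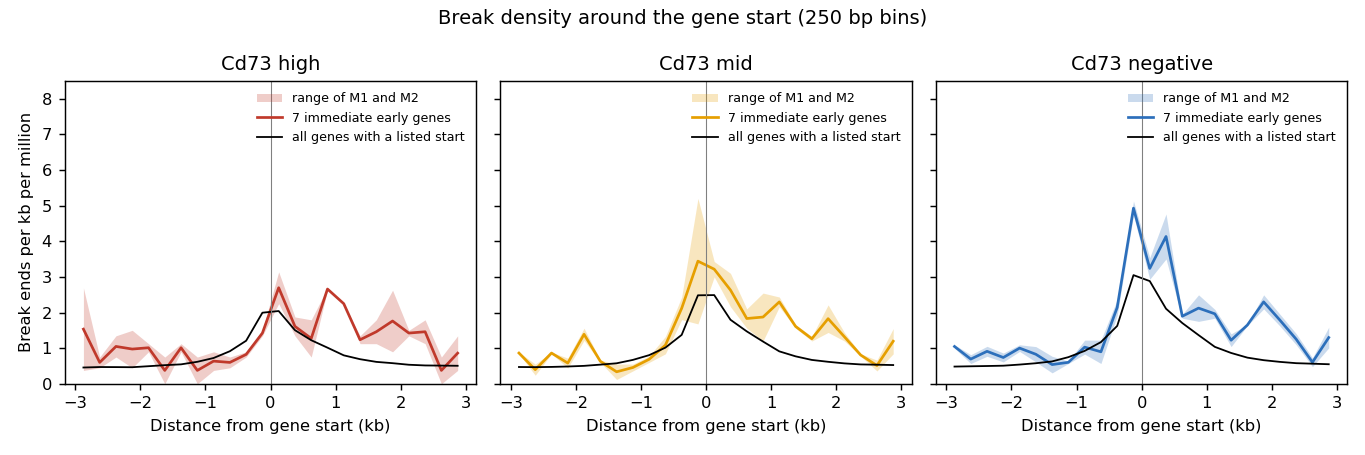
Break density in EPKM in 250-base bins around the gene start, averaged over the 7 genes with a listed start (coloured line, with the range of M1 and M2 as a band) and over all 17491 starts (black line), for Cd73 high, mid and negative. In the bin before the start the 7 genes had 1.42, 3.44 and 4.93 EPKM in Cd73 high, mid and negative, beside 1.996, 2.48 and 3.05 over all starts.

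Single genes placed their ends differently. Here the parts of a gene are counted from the end of the annotated gene body, which for Mcl1 and Nr4a1 lies before the start listed in the promoter table, at 95658721 for Mcl1 and 101266846 for Nr4a1. Dusp1 had its densest part in the first 1 kb of the gene, with 2.56 ± 0.829 EPKM in Cd73 high, 3.02 ± 0.112 in Cd73 mid and 5.16 ± 1.12 in Cd73 negative, and that kb held 46.0% of the window's ends in Cd73 negative. Ier2 had 3.54 ± 0.564, 4.94 ± 3.42 and 8.08 ± 0.0387 EPKM in the same gates in the first 1 kb of the gene by coordinate, since its strand is not listed. At Ier3 the 2 kb upstream of the start held 15.4% of the ends in Cd73 high (0 and 2 ends), 38.6% in Cd73 mid and 49.8% in Cd73 negative. In Cd73 negative they averaged 2.18 ± 0.910 EPKM. This share was also higher in Cd73 negative than in Cd73 high at Ier5 (34.3% and 15.8%), Btg2 (23.5% and 17.6%) and Nr4a1 (9.62% and 7.69%). The Cd73 high shares rest on 1 and 2 ends at Ier5, 2 and 1 at Btg2 and 2 and 2 at Nr4a1. The share was lower in Cd73 negative at Dusp1 (4 and 2 ends in Cd73 high) and Mcl1 (1 and 6). At Zfp36 it was nearly equal, with 20.1% in Cd73 negative and 20.5% in Cd73 high (6 and 2 ends). With so few ends in Cd73 high, the direction in a single gene is uncertain, and it was not tested. Mcl1 had 68.4% of its Cd73 negative ends in the gene body beyond its first 1 kb, a part that holds the listed start, and Zfp36 spread its ends across all parts, with 3.56 ± 0.807 EPKM in the first 1 kb and 2.58 ± 0.452 in the 2 kb downstream in Cd73 negative.

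Ends piled up on single positions, more so in the deeper libraries. Over the 10 genes together there were 1.03 and 1.08 ends per position hit in Cd73 high libraries, 1.18 and 1.23 in Cd73 mid and 1.46 and 1.52 in Cd73 negative. Over all windows the values were 1.04 and 1.04 in Cd73 high, 1.09 and 1.13 in Cd73 mid and 1.23 and 1.25 in Cd73 negative. The genes thus exceeded the average window in Cd73 mid and Cd73 negative, with 9 and 10 of 10 above the median window in Cd73 mid M1 and M2, and 8 and 9 in Cd73 negative. Ier2 reached 1.87 and 2.05 ends per position in the Cd73 negative libraries, at the 99.2nd and 99.5th percentile, while Btg2 with 1.17 and 1.25 lay below the median window in both. Denser windows had more ends per position in general, with a Spearman correlation across 20513 windows of 0.824 in Cd73 negative M1 and of 0.860 across 20479 in M2, given as a description since windows of a library share its depth. With all libraries thinned to equal depth, the 10 genes had between 1.02 and 1.10 ends per position in every library, beside 1.03 to 1.05 over all windows. They had 1.02 beside 1.04 in Cd73 high M1, and 1.10 beside 1.05 in Cd73 negative M2. At full depth the median of windows of 5 to 11 kb was 1.30 and 1.34 in Cd73 negative M1 and M2. In both, 7 of the 9 genes of that length lay above it.

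**Figure D4:**
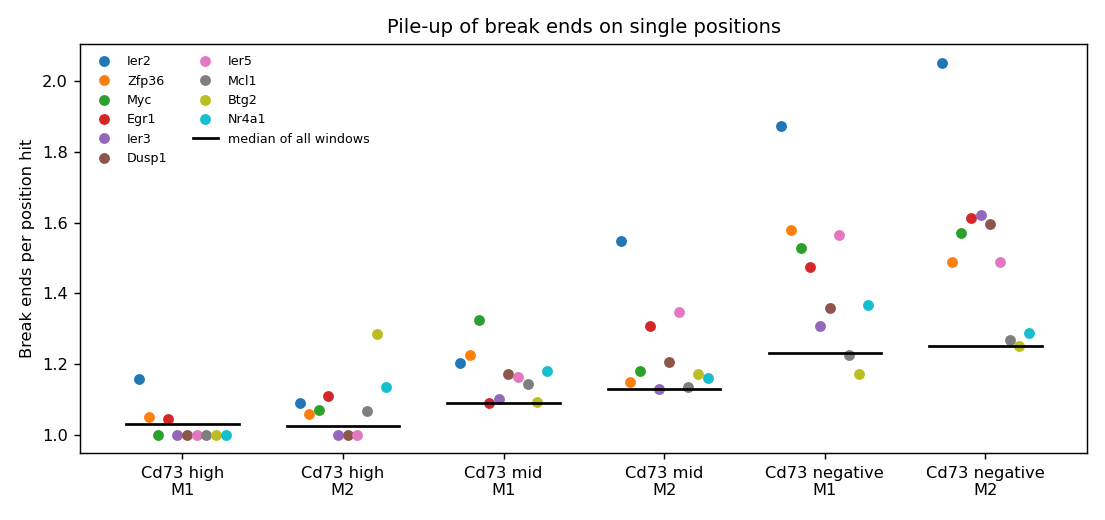
Break ends per position hit for each of the 10 genes in each library, with the median of all windows of at least 5 ends as a black line. The points spread upward in the Cd73 negative libraries, where Ier2 reached 1.87 and 2.05, and lie between 1 and 1.29 in the Cd73 high libraries.

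Some positions recurred between libraries, mostly between the 2 deep Cd73 negative ones. At Ier2 the most hit base, chromosome 8 position 84663000, to the right of the gene by coordinate, had 1 and 0 ends in Cd73 high, 1 and 4 in Cd73 mid and 15 and 29 in Cd73 negative. At Egr1 the position 34859894 on chromosome 18, at -1313 relative to the left end of the gene, was hit in all 6 libraries, with 2 and 2 ends in Cd73 high, 2 and 3 in Cd73 mid and 9 and 22 in Cd73 negative. At Ier3 the most hit base, 35821525 on chromosome 17, at -188 relative to the start and in capitals in the promoter printed above, had 0 and 0 ends in Cd73 high, 0 and 5 in Cd73 mid and 8 and 19 in Cd73 negative. At Dusp1 the position 26508054 on chromosome 17, 418 bases into the gene, had 0 and 0 ends in Cd73 high, 1 and 3 in Cd73 mid and 12 and 16 in Cd73 negative. Each of these bases had its highest count in a Cd73 negative library, which is also where depth was greatest. The Cd73 negative libraries had 52 positions in common at Ier2, which were 40.9% of the positions hit in M1 and 34.7% of those in M2, and 17 at Btg2, which were 18.3% and 17.0%. The Cd73 mid libraries had 15 in common at Ier2 and 7 at Btg2, and the Cd73 high libraries 2 and 0. Values for other windows are not given here, so the recurrence cannot be called particular to these genes. Whether repeated hits on a base came from separate molecules was not tested.

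Other genes of the same response stood at like levels. A list of further primary response genes, of which 43 were annotated and tested, had a median density of 1.34 EPKM in Cd73 high, 1.48 in Cd73 mid and 1.66 in Cd73 negative. The 9 genes of the AP-1 list (Fos, Jun and Atf families and Maff) had 1.51, 1.83 and 2.17 EPKM in the same gates. The 23 genes of the signalling list (receptor, RAS, RAF, MAP kinases and their targets, with the topoisomerase genes Top2a and Top2b) had 0.596, 0.703 and 0.722 EPKM. In Cd73 high against Cd73 negative 0 genes of these lists were called by the edgeR quasi-likelihood test, and 5, 2 and 1 had an unadjusted p under 0.05, all lower, while DESeq2 called 1 window among all 19146. Over all windows 9.14% had such a p and 50.5% were lower. Of the primary response genes 35 were lower and 8 higher with a median log2 fold change of -0.24, of the AP-1 genes 7 were lower and 2 higher with -0.19, and of the signalling genes 12 were lower and 11 higher with -0.0239.

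The genes of these lists with the smallest p did not pass the test. Atf3, a stress-induced bZIP factor, had 0.771 and 0.738 EPKM in Cd73 high, 1.27 and 1.44 in Cd73 mid and 1.51 and 1.75 in Cd73 negative, with a log2 fold change of -0.96 in Cd73 high against Cd73 negative (SE 0.25, edgeR adjusted p = 0.248). Bhlhe40, a circadian and stress-responsive repressor, had 1.02 and 0.610 EPKM in Cd73 high, 1.33 and 1.47 in Cd73 mid and 1.68 and 1.94 in Cd73 negative, with -0.97 (SE 0.30, edgeR adjusted p = 0.278). Both had Cd73 high libraries below those of the other gates, but both were picked by their small p in Cd73 high against Cd73 negative. In counts scaled by TMM, Cd73 high was lower without overlap in 21.5% of all windows against Cd73 negative and 17.1% against Cd73 mid. Gadd45b, a growth arrest and damage response gene, had -0.68 (SE 0.25), and Fosb, a partner of Jun in AP-1, had -0.59 (SE 0.23), with edgeR adjusted p of 0.366 and 0.380. The kinase gene Rps6ka1 had -0.41 (SE 0.18) and the GTPase gene Nras -0.65 (SE 0.37), with edgeR adjusted p of 0.469 and 0.598.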

How the data were processed

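Each deposited file holds the positions of 1 library with the count of break ends the authors found there, not normalized and without strand. The submitters' processing notes name BWA and GRCm38, and the aligner's version, its filters and any removal of duplicates were not given in the sources used here. Ends were summed over 21883 RefSeq gene bodies with 2 kb on each side on the main chromosomes, fully and once per position. In R 4.3.3, edgeR 4.0.16 scaled the libraries by TMM, dropped low windows with filterByExpr and applied its quasi-likelihood test in a single fit of 6 libraries in 3 gates, and a Benjamini-Hochberg adjusted p under 0.05 over 19146 windows was called. All 10 genes passed the filter. The test was tested on simulated counts. EPKM use the unscaled library total.

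All 10 members were named, and from the other lists the 2 genes with the smallest p in Cd73 high against Cd73 negative. Members and lists were chosen with earlier results of these data known. Alternatives were DESeq2 1.42.0, no TMM, loess offsets, no filter, counting once, thinning, other windows and flanks, positions over 100 ends left out, each library left out and a replicate block. The background of windows of 5 to 11 kb was added after seeing the data. The 5 genes most like the mean profile of the members are in the closing section. The human libraries were not analysed here.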

Additional observations from a re-analysis of the deposited data

How the results depend on the processing

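With 2 libraries per gate and 5 to 27 ends per gene in the shallow Cd73 high libraries, small differences could not be resolved. No member was called in any of the 3 comparisons under 19 alternatives (7 of the 10 members could be tested around the start). Of 187 alternative log2 fold changes of members in each comparison, 13 changed sign in high against negative (5 members), 23 in mid against negative (6 members) and 20 in high against mid (6 members). In Cd73 high against Cd73 negative 1 window was called, 2 with loess offsets, 0 after thinning, after thinning with each position counted once and within 1 kb of the start, 4 with the replicate block, and 0 to 2 with a library left out (2 without Cd73 negative M1); in Cd73 mid against negative 1 was called with each position counted once. M1 minus M2 differences correlated between gates at -0.0316 (high and mid), -0.0414 (high and negative) and 0.35 (mid and negative), and the last was 0.53 in the upper range of counts; the labels state no pairing, and with the block the members' median in high against negative was -0.36.

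That median (-0.37) was -0.10 with each position counted once, -0.57 thinned, -0.53 with 1 kb on each side, and -0.47 to -0.26 with a library left out; mid against negative gave 0.12 around the start and -0.33 to -0.0238, and high against mid -0.51 to -0.0295. Of the values printed in the report, signs turned in high against negative for Ier3 (0.17, body alone), Nr4a1 (0.028 thinned, 0.51 around the start, -0.16 to 0.0254 with a library left out), Zfp36 (0.081 counted once, 0.14 thinned, 0.0902 both, 0.0124 around the start), Mcl1 (-0.23 body alone, -0.10 with 1 kb, -0.13 around the start, -0.0116 to 0.29) and Egr1 (-0.91 to 0.0496), and in mid against negative for Ier3 (0.13 thinned, 0.33 also counted once). Adjusted p of all these stayed at 0.213 or more. Median densities with the body alone were 1.42, 1.84 and 2.49 EPKM in Cd73 high, mid and negative; in negative they were 1.34 counted once and 1.97 thinned. Median local ratios with 20 kb flanks were 1.82, 1.87 and 2.01; counted once they were 2.08 in mid and 2.22 in negative, and with 100 kb flanks 2.65 in negative. Among windows of 5 to 11 kb, chosen after seeing the data, the median percentile of the members was 79.7, 87.4 and 85.8. Causes of these changes were not tested.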

Other observations

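Outside the lists named here, the 5 genes whose log2 CPM over the 6 libraries was most like the mean of the 10 immediate early genes were Slc51b, a subunit of the bile acid exporter of enterocytes, Tor1aip2, Pigyl, Hadh, a mitochondrial enzyme of fatty acid oxidation, and Mfsd2a, a lysolipid transporter. Their Pearson r lay between 0.992 and 0.996, as a description over 6 libraries, which share their depth order with the gates. Of 16098 eligible genes 404 had an r over 0.9. Among the 10 themselves, r to their mean ran from -0.32 at Mcl1 to 0.97 at Myc.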
